A study of Mus musculus with 40 samples.

Results

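The livers of 10 male mice were compared, 5 that received 0.5 mg/kg bw/d of GenX (mice 301 to 305) and 5 controls (mice 101 to 105). They were chosen by the animal numbers that head the columns of the deposited counts, and make up 10 of the 40 liver libraries of the series, which also covers females and the doses of 0.1 and 5 mg/kg bw/d with 5 mice per sex and dose. GenX is the ammonium salt of a perfluorinated ether carboxylic acid that is used in place of longer perfluoroalkyl acids. Both groups were wildtype Crl:CD1(ICR) males, housed singly and given deionized water by gavage every day for 90 days, with GenX in it for the treated group and without it for the controls. The age of the mice was not given in the sources used here. The liver had been fixed in formalin and embedded in paraffin, and a single section per mouse, from the animals with the lowest numbers of each group, was measured with TempO-Seq. In this assay, 2 short DNA probes that lie side by side on a target RNA are joined, amplified and sequenced, and the reads are counted per probe. A section holds all cell types of the liver, so fewer cells of a type and less RNA per cell cannot be told apart in these data.

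Peroxisome proliferator-activated receptor alpha (PPARα) is a nuclear receptor of hepatocytes that binds fatty acids and many synthetic acids. It pairs with the retinoid X receptor on DNA elements made of a direct repeat of a hexamer and turns on the genes by which the liver takes up, activates and burns fatty acids in mitochondria and peroxisomes, together with the Cyp4a enzymes that hydroxylate fatty acids at their far end. In rodents, its sustained activation is known for growth of the liver and for a gain in peroxisomes, and it is also known to lower the expression of some plasma proteins made by the liver.

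Control libraries held 11652950 to 13365952 reads and treated libraries 13180219 to 15531174, within the 10341341 to 15562253 reads of the 39 libraries of the series that entered the model. Reads on a probe gathered around multiples of a first peak, and 1 such step, taken here as a captured molecule, was worth 1.90 to 3.48 CPM (counts per 1000000 reads, scaled by edgeR's TMM) in these 10 mice. Divided by that peak, controls held 287241 to 369995 molecules and treated mice 361912 to 526723. The mean number was 1.37 times higher in treated mice (exact two-sided permutation test, p = 0.0159, n = 5 per group), so depth moved with the treatment. Reads are not independent molecules, and how many molecules 1 read stands for differed between libraries. The library of mouse 355, a female at 0.5 mg/kg, fell under the depth criterion of the study and was left out.

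Genes with more RNA in the livers of males at 0.5 mg/kg included many of fatty acid oxidation and of the heat shock chaperones, and genes with less RNA included clotting factors and other plasma proteins. Of 12412 genes tested on their most counted probe, 233 were increased (1.88%) and 91 decreased (0.733%) at a Benjamini-Hochberg adjusted p below 10% in edgeR's quasi-likelihood test, which is what is meant by called. Values after ± are standard errors of log2 fold changes unless an SD is named. The median log2 fold change was 0.971 among the increased genes, -0.819 among the decreased ones and 0 over all genes tested. The 5 treated mice all lay above the 5 controls for 167 of the increased genes, where 2.34% of all genes tested had treated mice apart and higher, and all lay below them for 63 of the decreased genes, where 1.27% were apart and lower. For 156 of the called genes, 205 further probes were tested, of which 159 moved in the direction of the main probe, 46 were called in that direction and 0 in the other.

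The balance of the directions differed between scalings and between units of the counts. Increased genes were 71.9% of the calls, 60.4% with DESeq2, 61.2% with DESeq2's size factors in edgeR, 61.5% when the 10 libraries were fitted alone, 52.9% with counts in units of molecules and 51.3% with molecules thinned to equal depth, which gave 236 increased and 224 decreased genes. Fewer genes passed the filter with molecules, 4290 and 3693 against 12412, and the cause of these shifts was not tested. With the shallow library of mouse 355 in the model, the calls fell to 54 increased and 11 decreased genes. Of the calls, 111 increased and 31 decreased genes were called the same way under the 7 alternatives other than that one and without each of the 10 mice in turn, and 45 and 10 of these also with the library of mouse 355. The number of decreased genes was 53, 54 and 58 without mouse 305, 303 and 104.

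The plot of gene lists shows where the called genes lay, list by list.

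**Figure D1:**
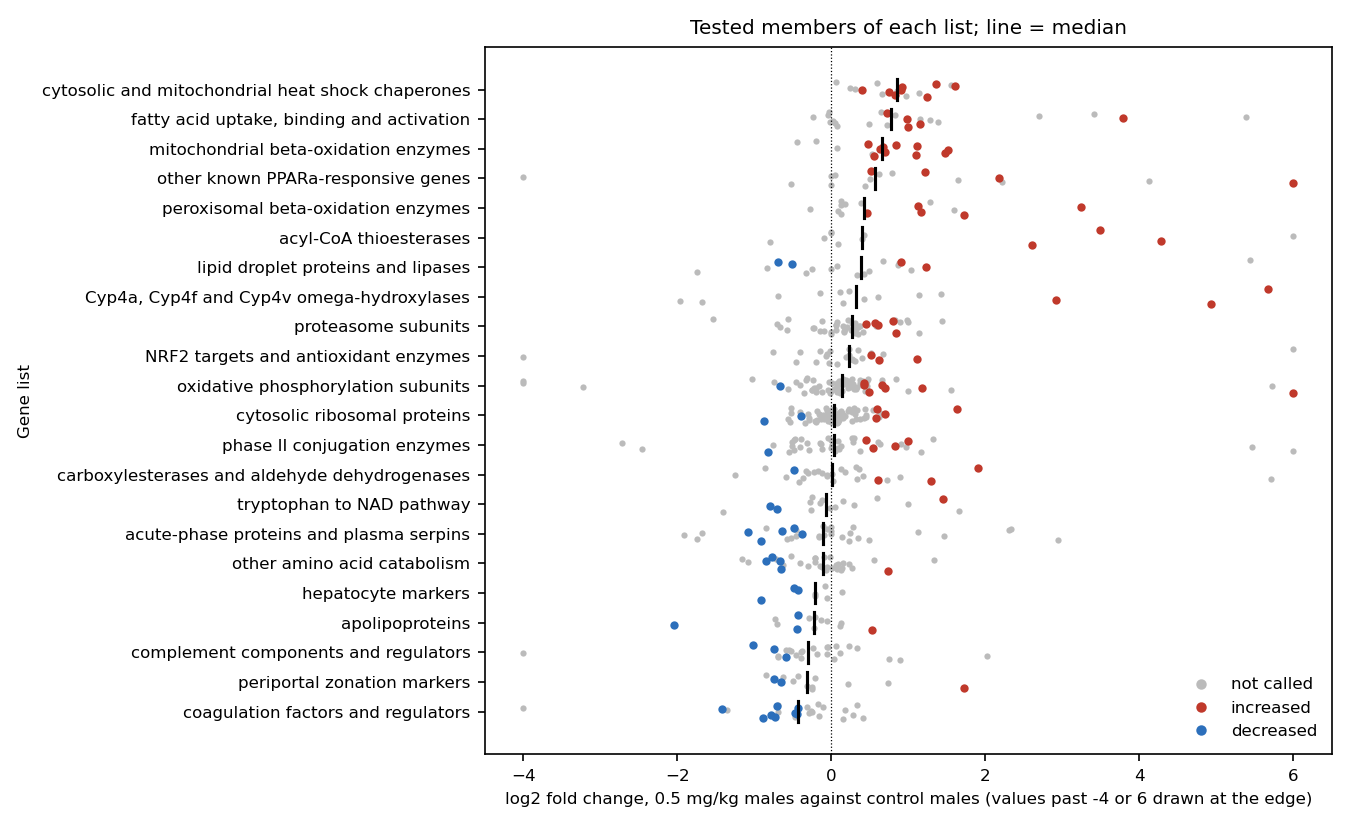
Each point is a tested gene of a list, placed by its log2 fold change in males at 0.5 mg/kg against control males (x axis, values past -4 or 6 drawn at the edge), for the 22 lists with at least 3 called genes (y axis). Red points were increased and blue points decreased at an adjusted p below 10%, grey points were not called, and black lines are medians. The medians run from -0.44 for coagulation factors to 0.85 for heat shock chaperones.

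Peroxisomal beta-oxidation shortens long and branched fatty acids. Of its 14 enzymes tested, 5 were increased and 0 decreased, with a median log2 fold change of 0.43. Ehhadh, the bifunctional enzyme of the middle steps of the cycle (chromosome 16, 21761287 to 21787807 on the minus strand in GRCm38), had 167, 257, 247, 213 and 139 CPM in controls 101 to 105 and 2037, 1814, 2078, 2184 and 1518 CPM in treated mice 301 to 305. Every treated mouse lay far above every control, and the log2 fold change was 3.23 ± 0.17 (adjusted p = 2.55e-19), the smallest p of the genes named here. Acaa1a, a thiolase of the last step, rose from 467, 638, 579.8, 528 and 344 CPM to 1606, 1759.9, 1861, 1724 and 1471 CPM, without overlap, by 1.72 ± 0.24 (adjusted p = 2.02e-06). Further probes of Acaa1a were at 0.19 ± 0.36 and 0.77 ± 0.52 and were not called. Eci2, which shifts double bonds, rose by 1.17 ± 0.17 (adjusted p = 8.99e-06), Decr2, a reductase for unsaturated chains, by 1.12 ± 0.23 (adjusted p = 0.0025), and Hsd17b4, the second bifunctional enzyme, by 0.47 ± 0.11 (adjusted p = 0.00864). The second thiolase, Acaa1b, also had treated mice above controls, at 24.6 to 42.1 against 2.62 to 18.5 CPM, but missed the threshold at 1.59 ± 0.51 (adjusted p = 0.121). Scp2, a sterol carrier with thiolase activity, was at 1949 to 2489.7 against 1853 to 2170.2 CPM and the ranges overlapped. Of 24 peroxins and peroxisomal membrane proteins, Pex11a alone was called, a factor of peroxisome division, with 21.1, 19.9, 32.5, 28.3 and 9.39 CPM in controls and 97.1, 71.1, 86.2, 88.6 and 103 CPM in treated mice and a log2 fold change of 2.00 ± 0.35 (adjusted p = 0.000273). The median of that list was 0.05.

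Mitochondrial beta-oxidation had more increased genes, 10 of 14 enzymes, with 0 decreased and a median of 0.65. Acadl, the long-chain acyl-CoA dehydrogenase, had 144, 162, 117, 154 and 134 CPM in controls and 425, 399, 371, 456 and 382 CPM in treated mice. The groups were apart, with a log2 fold change of 1.52 ± 0.15 (adjusted p = 2.39e-10). Eci1, the mitochondrial enoyl-CoA isomerase, rose by 1.47 ± 0.19 (adjusted p = 3.16e-07), with controls at 62.2 to 104 CPM and treated mice at 173 to 256 CPM. Acadm, the medium-chain dehydrogenase, was at 621, 650.4, 607, 629 and 497 CPM in controls and 1299, 1331, 1347, 1389 and 1113 CPM in treated mice and rose by 1.11 ± 0.14 (adjusted p = 1.53e-07). Hadhb, the thiolase subunit of the trifunctional protein, rose by 1.10 ± 0.13 (adjusted p = 1.13e-07). Its partner Hadha rose by 0.84 ± 0.16 (adjusted p = 0.00134), but treated mouse 303, at 249 CPM, lay inside the range of the controls. The other increased members were Acaa2, Acadvl, Decr1, Etfb and Hadh, with log2 fold changes from 0.47 to 0.69. Without each of the 10 mice in turn, 9 or 10 of the enzymes were called, and 1 with the library of mouse 355 in the model.

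Entry of fatty acids into mitochondria and the making of ketones gave fewer calls. Of 8 genes of the carnitine shuttle, 1 was increased, Crot, the peroxisomal octanoyltransferase, from 54.9, 49.2, 42.8, 16 and 42.9 CPM to 112, 119.5, 167, 122 and 138 CPM, by 1.68 ± 0.27 (adjusted p = 7.34e-05). Cpt1a, which admits long chains to mitochondria, was near the limit of the assay at 2.57 to 13.3 CPM in controls and 2.36 to 7.20 CPM in treated mice. In the list of ketone synthesis and pyruvate dehydrogenase kinases, Acat1, a mitochondrial thiolase that also serves the breakdown of ketones, rose by 0.80 ± 0.15 (adjusted p = 0.000617). Pdk4, a kinase of that list, had reads in 1 of the 10 mice, treated mouse 303.

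The plot of fatty acid genes by mouse shows the separation of the groups for 12 of these genes.

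**Figure D2:**
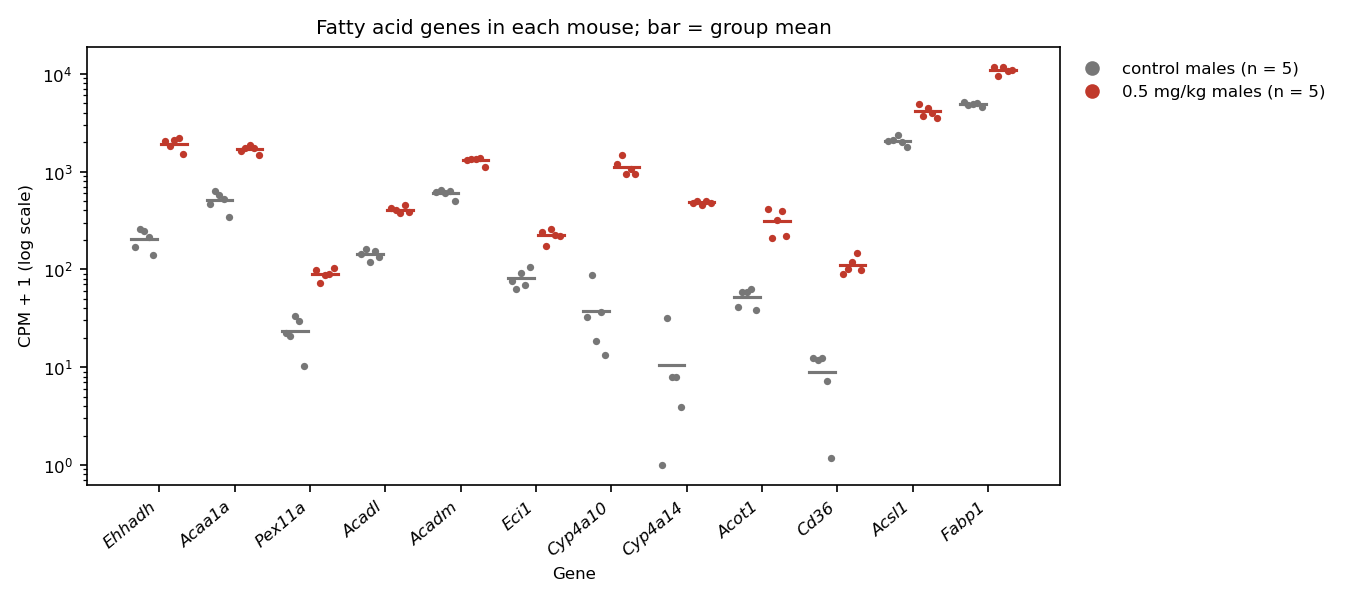
Points are single mice, grey for the 5 controls and red for the 5 treated males, and bars are group means. The y axis is CPM + 1 on a log scale. For all 12 genes drawn, the lowest treated mouse lies above the highest control, and the gap is widest for Cyp4a14 and Cyp4a10.

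The omega-hydroxylases Cyp4a14 and Cyp4a10 had the largest fold changes among called genes with a mean above 100 CPM. Cyp4a10 had 31.7, 86.7, 17.7, 35.9 and 12.5 CPM in controls and 1203, 1466, 950.1, 1064 and 942 CPM in treated mice, a log2 fold change of 4.93 ± 0.40 (adjusted p = 5.74e-13). Cyp4a14 had 0, 30.7, 6.94, 6.98 and 2.89 CPM in controls and 480.2, 502, 457, 499.9 and 475 CPM in treated mice, and rose by 5.67 ± 0.71 (adjusted p = 2.21e-07). Control mouse 102 was the highest control for both, and treated mice lay within a narrow band for Cyp4a14. Cyp4a31, with controls at 28.6 to 87.7 CPM and treated mice at 315 to 463 CPM, rose by 2.92 ± 0.25 (adjusted p = 2.42e-12). For Cyp4a32, treated mice at 22.6 to 52.3 CPM lay above controls at 9.76 to 22.2 CPM, but the gene was not called, at 1.14 ± 0.66 (adjusted p = 0.421). The genes of this cluster on chromosome 4 are close in sequence, so reads of one may include those of another. Of the 14 Cyp4 genes tested, 3 were increased and 0 decreased.

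Acyl-CoA thioesterases, which free fatty acids from coenzyme A, gave 3 increased genes of 11. Acot1, the cytosolic form, had 40.2, 57.8, 58.0, 61.6 and 37.4 CPM in controls and 415, 207, 319, 394 and 221 CPM in treated mice and rose by 2.61 ± 0.26 (adjusted p = 4.17e-10). Acot3, a peroxisomal form, was at 1.71, 0, 2.26, 0 and 3.61 CPM in controls and 78.0, 16.8, 25.3, 14.9 and 12.4 CPM in treated mice, with mouse 301 far above the others, and rose by 4.28 ± 0.79 (adjusted p = 0.000609). Acot2, the mitochondrial form, was at 0 to 3.75 against 7.48 to 35.9 CPM, and its call, at 3.48 ± 0.94 (adjusted p = 0.0398), was lost without mouse 101, 105 or 303 and with DESeq2 (highest adjusted p over all alternatives, 0.223).

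Uptake, binding and activation of fatty acids gave 5 increased genes of 22 and 0 decreased, with a median of 0.78. Cd36, the fatty acid translocase of the cell surface, had 11.3, 10.8, 11.3, 6.19 and 0.181 CPM in controls and 89.0, 101, 119, 147 and 97.3 CPM in treated mice, and rose by 3.79 ± 0.56 (adjusted p = 9e-06). Fabp1, the abundant fatty acid-binding protein of the liver (chromosome 6, 71199827 to 71205023 on the plus strand in GRCm38), had 5197, 4766, 4958, 5039.5 and 4589 CPM in controls and 11744, 9555, 11653, 10685 and 10918 CPM in treated mice, and rose by 1.15 ± 0.15 (adjusted p = 2.8e-07). Acsl1, which joins fatty acids to coenzyme A, had 2043, 2120.2, 2354, 2005 and 1776 CPM in controls and 4873, 3679, 4483, 3983 and 3560.4 CPM in treated mice, and rose by 1.0 ± 0.11 (adjusted p = 8.97e-09). No treated mouse overlapped a control for these 3 genes on their most counted probes. A second probe of Acsl1 was at 0.37 ± 0.17 and was not called. Fabp2, a second binding protein, and Dbi, which binds acyl-CoA, rose by 0.98 and 0.72 on the log2 scale.

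Among other genes known to respond to PPARα, 4 of 16 were increased and 0 decreased. Retsat, a retinol saturase, had 230.3, 221, 338, 266 and 177 CPM in controls and 1230.1, 941, 1107, 1248 and 1057 CPM in treated mice and rose by 2.18 ± 0.17 (adjusted p = 2.39e-13). Hsdl2, a peroxisomal dehydrogenase-like protein, rose by 1.22 ± 0.28 (adjusted p = 0.00923). Creb3l3, a liver transcription factor, rose by 0.51 ± 0.14 (adjusted p = 0.0453), and this call was lost without mouse 101, 102 or 301 (highest adjusted p over all alternatives, 0.327). It was also lost with probes summed by gene, and a second probe of Creb3l3 was at 0.07 ± 0.13 and was not called. Krt23, a keratin, had 0 reads in each control and 4.07, 15.5, 5.00, 0 and 7.44 CPM in treated mice, so no fold change is given. The receptor itself, Ppara, was at 102 to 213 CPM in controls and 84.4 to 212 CPM in treated mice, and its partner Rxra at 472 to 805 and 644 to 689.6 CPM, with overlapping ranges and log2 fold changes of -0.15 ± 0.28 (adjusted p = 1) and -0.03 ± 0.12 (adjusted p = 1). None of 23 nuclear receptors and coactivators was called by edgeR, and DESeq2 called 1. Angptl4, an inhibitor of lipoprotein lipase that PPARα is known to raise, had controls at 49.1 to 116 and treated mice at 66.4 to 158 CPM and was not called.

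The bases before the start of some of the increased genes of these lists are shown as a description. These genes were picked by their calls, so their shared direction is no result. In the 250 bases before each annotated start, AGGTCA was sought on both strands, alone and as a direct repeat spaced by 1 base with at most 2 mismatches in its 12 letters, and GAANNTTC, the core that heat shock factors are known to bind, was sought without mismatch. The repeat contains the single hexamer, so those matches can overlap. Of the 34 genes increased in the lists from peroxisomes to PPARα-responsive genes, 26 had an entry in the RefSeq promoters of GRCm38.p6, and 3 of their 30 windows (10%) held the repeat, where 3.24% of all 32851 windows did. The share was 6.67% over all increased and 3.66% over all decreased genes, and 2 of 9 windows (22.2%) of the increased chaperone genes described below, those of Hspd1 and Hspe1, held it. The windows of Hspd1 and Hspe1 overlap and share the repeat, so the same site is counted for both genes. The single hexamer was in 16.7% of the windows of the fatty acid genes in 33.3% of those of the chaperones and in 14% of all windows. A match is a description of the letters and not evidence of binding. The windows of the 3 fatty acid genes with the repeat follow, 5′ to 3′ on the strand of the gene, with the repeat in capitals, which in Fabp1 and Cd36 reads on the opposite strand.
Fabp1 (chr6:71199629-71199878, plus strand): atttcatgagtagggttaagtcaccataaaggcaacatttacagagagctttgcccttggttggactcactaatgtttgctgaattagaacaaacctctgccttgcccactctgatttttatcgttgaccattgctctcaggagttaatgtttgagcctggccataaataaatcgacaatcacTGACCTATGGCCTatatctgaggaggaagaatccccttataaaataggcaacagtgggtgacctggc
Cd36 (chr5:17835897-17836146, minus strand): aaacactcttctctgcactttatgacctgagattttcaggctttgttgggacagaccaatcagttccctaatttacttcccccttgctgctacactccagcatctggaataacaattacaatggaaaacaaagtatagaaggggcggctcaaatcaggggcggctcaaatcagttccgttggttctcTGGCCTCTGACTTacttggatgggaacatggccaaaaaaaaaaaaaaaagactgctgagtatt
Creb3l3 (chr10:81092592-81092841, minus strand): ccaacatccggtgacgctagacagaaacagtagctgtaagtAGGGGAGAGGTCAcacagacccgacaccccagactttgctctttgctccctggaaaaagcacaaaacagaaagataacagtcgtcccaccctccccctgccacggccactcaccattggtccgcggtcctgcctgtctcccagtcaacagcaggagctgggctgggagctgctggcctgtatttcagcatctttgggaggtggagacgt
The match in Fabp1 had 1 mismatch and ended 54 bases before the RefSeq start, and those in Cd36 and Creb3l3 had 2 mismatches each. The RefSeq start of Fabp1 lies inside the gene span given above, which is from GENCODE, so the window reaches into that span.

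Storage of lipids was mixed. Of 18 lipid droplet proteins and lipases, 2 were increased and 2 decreased. Plin2, the coat protein of hepatocyte droplets, had 553, 541, 697, 379 and 468 CPM in controls and 942, 867, 1055, 1022 and 1047 CPM in treated mice and rose by 0.90 ± 0.18 (adjusted p = 0.00207). Mgll, the monoglyceride lipase, rose by 1.23 ± 0.29 (adjusted p = 0.0109). Cideb, which loads lipid onto lipoproteins, fell by 0.51 on the log2 scale (adjusted p = 0.0356), and Lipc, the hepatic lipase secreted toward plasma, by 0.69 (adjusted p = 0.0437). The call of Cideb was lost without mouse 102 and that of Lipc without mouse 101, 304 or 305, with highest adjusted p values over all alternatives of 0.574 and 0.327. A second probe of Lipc was at -0.004 ± 0.17 and was not called. Hsd17b13, a droplet protein of hepatocytes that is listed among periportal markers, had 74.1, 63.5, 58.0, 65.4 and 52.2 CPM in controls and 247, 242, 145, 104 and 299 CPM in treated mice and rose by 1.73 ± 0.32 (adjusted p = 0.000717).

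Making of lipids changed in few genes. Among 19 lipogenesis, elongation and desaturation enzymes, Elovl2, an elongase of polyunsaturated chains, was the one call, with 246, 303, 254, 268 and 242 CPM in controls, 177, 131, 165, 151 and 171 CPM in treated mice and a log2 fold change of -0.73 ± 0.16 (adjusted p = 0.00635). A second probe of Elovl2 was at -0.30 ± 0.17 and was not called. In triglyceride synthesis, 2 of 13 genes were increased and 0 decreased. They were Gpat3, an acyltransferase of the first step, at 0.89 ± 0.25 (adjusted p = 0.0557), and Mogat1, an acyltransferase for monoglycerides, which had 0 reads in each control and 3.00, 3.24, 5.16, 6.09 and 4.39 CPM in treated mice. Cholesterol synthesis gave 0 calls of 24 with edgeR and 0 with DESeq2, with a median of 0.10, 3 increases without the filter on low counts, and Sc5d as its most abundant member at 947 to 1279 against 712 to 1705 CPM. Bile acid synthesis and transport gave 1 increase of 21, Abcc4, an efflux pump of the basolateral membrane, with 0 reads in each control and 2.07, 3.40, 3.79, 9.65 and 4.33 CPM in treated mice. The call of Gpat3 was lost without 6 of the 10 mice taken singly (highest adjusted p over all alternatives, 0.327) and that of Abcc4 was lost without mouse 102, 103, 104 or 105 (highest adjusted p over all alternatives, 0.159).

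Apolipoproteins, the protein part of plasma lipoproteins, gave 1 increase and 3 decreases of 13. Apoa4 had 160.1, 184, 179, 285 and 243 CPM in controls and 95.0, 56.9, 24.5, 38.7 and 39.2 CPM in treated mice, without overlap, and a log2 fold change of -2.05 ± 0.34 (adjusted p = 8.26e-05), the largest decrease among called genes with reads in both groups. Apoa2, a protein of high-density particles, had 2477, 1937, 2194, 2438 and 2303 CPM in controls and 4059, 2936, 3186, 3156 and 3039.8 CPM in treated mice and rose by 0.53 ± 0.13 (adjusted p = 0.0146). Apoh, which binds phospholipid in plasma, and Apob, the backbone of low-density particles, were lower at -0.45 ± 0.12 (adjusted p = 0.0517) and -0.43 ± 0.13 (adjusted p = 0.0924). Their treated mice lay below all controls, but the list had 1 decrease without mouse 101, 302, 303 or 305. The call of Apoh was lost without mouse 101, 302, 303 or 305 (highest adjusted p over all alternatives, 0.327) and that of Apob was lost without 8 of the 10 mice taken singly (highest adjusted p over all alternatives, 0.516).

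Clotting factors and their regulators held the most decreases of any list, 8 of 25, with 0 increases and a median of -0.44. Fgg, the gamma chain of fibrinogen (chromosome 3, 83007724 to 83015049 on the plus strand in GRCm38), had 2704, 3161, 3419.6, 3356 and 2877 CPM in controls and 1873, 1919, 1888, 1975 and 1885 CPM in treated mice. The treated mice lay close together and below all controls, and the log2 fold change was -0.70 ± 0.13 (adjusted p = 0.000772). Serpind1, heparin cofactor II, had 200.0, 296, 242, 172 and 219 CPM in controls and 119, 117, 112, 145 and 115 CPM in treated mice, with a log2 fold change of -0.89 ± 0.16 (adjusted p = 0.000471). Serpinc1, antithrombin, was lower by less, at -0.44 ± 0.10 (adjusted p = 0.00481). F11, a factor of the contact pathway, had 38.3, 42, 33.4, 35.4 and 71.1 CPM in controls and 9.78, 22.8, 22.2, 16.7 and 10.7 CPM in treated mice, at -1.42 ± 0.38 (adjusted p = 0.0341), and this call was lost without mouse 105, 301 or 305 (highest adjusted p over all alternatives, 0.15). The other 4 were F7 and F10, proteases of the cascade, Kng2, a kininogen, and Serpinf2, the inhibitor of plasmin, at -0.78, -0.45, -0.73 and -0.47. For all 8, every treated mouse lay below every control on the most counted probe. A second probe of F10 was at -0.06 ± 0.18 and was not called. Further probes were at -0.49 ± 0.15 for Fgg and at -0.35 ± 0.12 and -0.50 ± 0.13 for Serpinc1. The number called was 4 without mouse 105 or 305, 5 without mouse 104, 303 or 304, 13 with molecules thinned to equal depth and 0 with the library of mouse 355.

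Complement and the acute-phase proteins gave fewer calls, all of them decreases, 3 of 26 and 5 of 32. Vtn, vitronectin, which guards cells against complement and binds clotting regulators, had 1008, 1199, 1284, 1086 and 1116 CPM in controls and 619, 628, 542, 487 and 540.3 CPM in treated mice. The groups were far apart, with a log2 fold change of -1.02 ± 0.13 (adjusted p = 7.58e-07), the smallest p among the decreased genes named here. Masp2, a protease that starts the lectin pathway, was at -0.75 ± 0.19 (adjusted p = 0.0195) and C8g, a chain of the membrane attack complex, at -0.60 ± 0.17 (adjusted p = 0.051). Ahsg, fetuin-A, had 2371, 3234, 2805, 3149.8 and 2545 CPM in controls and 1565, 1769, 1491, 1409 and 1269 CPM in treated mice, at -0.91 ± 0.15 (adjusted p = 0.000115). Trf, transferrin, had 5087, 6255, 6348, 6808 and 7475 CPM in controls and 5102, 4997, 4343, 3938 and 4427 CPM in treated mice, at -0.49 ± 0.12 (adjusted p = 0.0156), and mouse 301 overlapped control 101. Apcs, serum amyloid P, was at -1.08 ± 0.33 (adjusted p = 0.0856), Serpina1d, an alpha-1-antitrypsin of a family of near-identical copies, at -0.65 ± 0.20 (adjusted p = 0.0901) and Itih2, a hyaluronan-binding inhibitor, at -0.39 ± 0.12 (adjusted p = 0.0971). A second probe of Itih2 was at -0.04 ± 0.40 and was not called. Without mouse 102, 104, 302, 303 or 305, 2 of the acute-phase genes were called, and 5 complement genes were decreased without mouse 101. The call of C8g was lost without 5 of the 10 mice taken singly (highest adjusted p over all alternatives, 0.327), that of Apcs was lost without 6 of the 10 mice taken singly (highest adjusted p over all alternatives, 0.294) and that of Serpina1d was lost without 8 of the 10 mice taken singly (highest adjusted p over all alternatives, 0.394). Of the 18 hepatokines, Ahsg was the one gene called.

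The list of hepatocyte markers shares genes with these lists. The summed level of the 8 markers was 15632 to 18458 CPM in controls and 12558 to 15054 CPM in treated mice (exact two-sided permutation test, p = 0.00794, the smallest that 5 against 5 can give). Of these markers, 3 are the decreased plasma proteins Ahsg, Apob and Trf above, of which Apob lost its call without 8 of the 10 mice taken singly. Trf alone held 35.6% of the sum, so the test of the sum is not separate from those decreases. The part of a hepatocyte shift in the decreases of plasma proteins was not tested. Markers of other cell types gave 0 calls in each of 8 lists with edgeR and with DESeq2, and 1 decrease among sinusoidal endothelial markers with molecules thinned to equal depth. Kupffer cell markers summed to 126 to 259 CPM in controls and 107 to 189 CPM in treated mice over 12 genes, with Timd4 at 0 in all 10 mice. Stellate cell markers summed to 121 to 205 and 98.5 to 184 CPM over 11 genes, and sinusoidal endothelial markers to 248 to 267 and 195 to 262 CPM over 8 genes. Lymphocyte markers stayed at or under 19.9 CPM in sum over 11 genes, and the defining markers Cd4, Cd8a and Ms4a1 were at 0. Cholangiocyte markers summed to 31.9 to 60.7 and 27.3 to 60.1 CPM over 5 genes with Krt7 and Epcam at 0, erythroid markers to 50.6 to 129.8 and 73.9 to 155 CPM over 5, neutrophil markers reached at most 14.8 CPM and adipocyte markers 3.17 CPM.

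Heat shock chaperones help proteins fold and are known to be made in larger amounts when proteins unfold. Of 17 tested, 8 were increased, 0 decreased, all 17 had a log2 fold change above 0 and the median was 0.85. Bag3, a co-chaperone that hands misfolded proteins to autophagy, had 79.2, 107, 137, 102 and 173 CPM in controls and 192, 235, 419, 269 and 293 CPM in treated mice and rose by 1.24 ± 0.27 (adjusted p = 0.00487). Hspb8, the small heat shock protein that works with Bag3, had 312, 309.5, 386, 406 and 566 CPM in controls and 669, 681, 785, 607 and 774 CPM in treated mice and rose by 0.83 ± 0.18 (adjusted p = 0.00455). Dnaja1, a J-domain partner of Hsp70, had 71.7, 118, 141, 108 and 114 CPM in controls and 173, 182, 273, 164 and 251 CPM in treated mice and rose by 0.92 ± 0.21 (adjusted p = 0.00787). For these 3 genes the groups did not overlap, and control mouse 105 was the highest control for Bag3 and Hspb8. Hspd1 and Hspe1, the chaperonin pair of mitochondria, rose by 0.91 ± 0.25 (adjusted p = 0.0397) and 1.60 ± 0.43 (adjusted p = 0.0392), with overlap. Hsp90aa1, the inducible cytosolic Hsp90, Hspa4l, an exchange factor, and Hspa9, the mitochondrial Hsp70, rose by 0.74, 1.35 and 0.39. The inducible Hsp70 gene Hspa1b had 28.1, 42.2, 47.6, 38.3 and 60.1 CPM in controls and 93.5, 69.0, 159.7, 50.5 and 103 CPM in treated mice and was not called, at 1.14 ± 0.61 (adjusted p = 0.34), and its neighbour Hspa1a, nearly identical to it, was at or under 8.47 CPM. The list's count rests on single mice, since 3 genes were called without mouse 303, 4 without mouse 104 and 5 without mouse 102 or 305, and 2 with the library of mouse 355 in the model. The call of Hspe1 was lost without mouse 101, 103 or 303 (highest adjusted p over all alternatives, 0.201).

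Of the 8 increased chaperone genes, 6 had promoter entries, and 3 of 9 windows (33.3%) held GAANNTTC, where 6.69% of all windows did. The share was 6.67% over all increased genes and 6.67% over the increased fatty acid genes. The same 3 genes also had AGGTCA in a window. The windows of Hspd1 and Hspe1, which are read away from each other, overlap and share 1 match, so the matches stand at 2 places. The windows of Dnaja1 and Hspe1 are shown with the match in capitals.
Dnaja1 (chr4:40722218-40722467, plus strand): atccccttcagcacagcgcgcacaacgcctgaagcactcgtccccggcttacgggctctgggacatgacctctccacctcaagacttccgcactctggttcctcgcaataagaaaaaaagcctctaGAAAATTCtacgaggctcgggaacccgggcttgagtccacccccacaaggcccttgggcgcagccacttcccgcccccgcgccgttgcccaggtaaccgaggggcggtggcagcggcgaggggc
Hspe1 (chr1:55087898-55088147, plus strand): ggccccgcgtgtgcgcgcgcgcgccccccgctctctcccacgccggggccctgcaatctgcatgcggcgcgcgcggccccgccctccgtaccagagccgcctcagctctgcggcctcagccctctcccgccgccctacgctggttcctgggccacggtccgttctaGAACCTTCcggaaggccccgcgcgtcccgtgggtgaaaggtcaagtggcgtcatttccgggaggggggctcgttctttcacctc
The matches ended 116 and 76 bases before the start of Dnaja1 and Hspe1.

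The plot of chaperones and plasma proteins by mouse sets the rising list beside the falling ones.

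**Figure D3:**
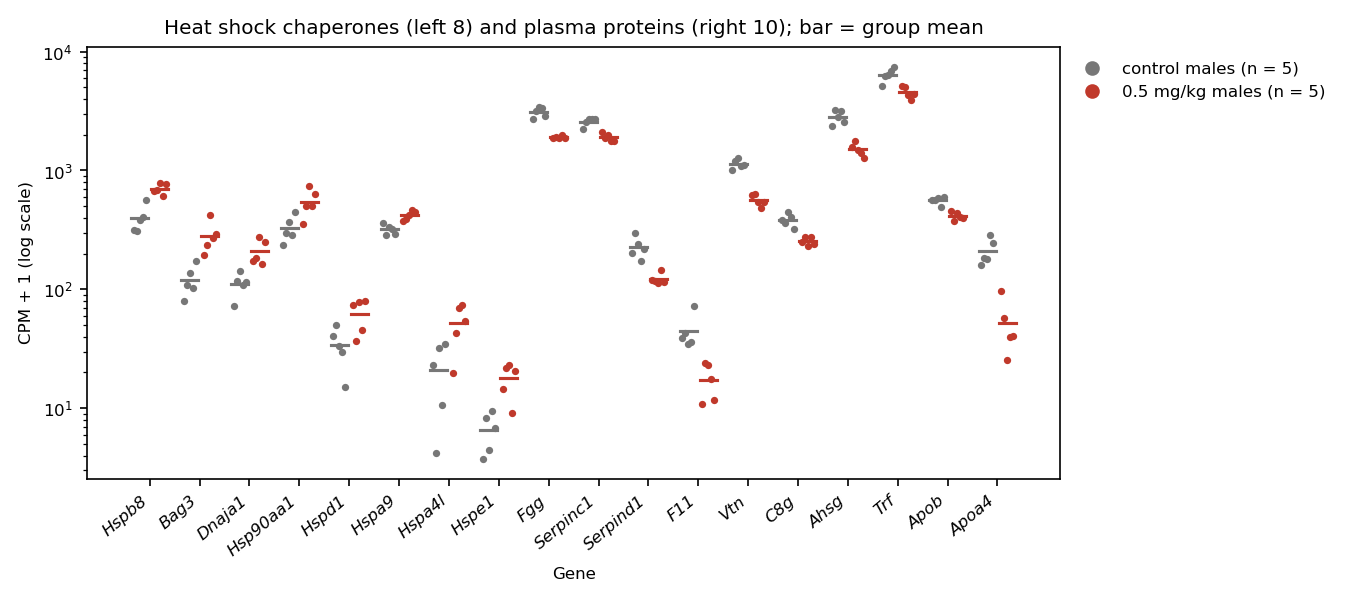
Points are single mice, grey for the 5 controls and red for the 5 treated males, bars are group means, and the y axis is CPM + 1 on a log scale. The 8 chaperones on the left have higher means in treated mice, with overlap of the groups for 4 of them, and the 10 plasma proteins on the right have lower means, with overlap for Trf.

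Other parts of protein turnover gave fewer calls for their size. Of 47 proteasome subunits, 5 were increased and 0 decreased, with a median of 0.27. Psmc2 and Psmd6, subunits of the cap, rose by 0.84 ± 0.20 (adjusted p = 0.0138) and 0.79 ± 0.19 (adjusted p = 0.0153), with treated mice above controls, and Psma3 and Psmc4 by 0.45 and 0.57. The count was 3 without mouse 101, 102, 104, 302 or 303. A second probe of Psmd6 was at 0.10 ± 0.29 and was not called. The call of Psma3 was lost without mouse 101, 102 or 305 (highest adjusted p over all alternatives, 0.23) and that of Psmc4 was lost without 5 of the 10 mice taken singly (highest adjusted p over all alternatives, 0.264). In the unfolded protein response, 1 of 27 genes was increased, Creld2, a chaperone-like protein of the endoplasmic reticulum, with 120.0, 116, 217, 151 and 499.9 CPM in controls and 294, 619.7, 741, 416 and 1193 CPM in treated mice, at 1.56 ± 0.41 (adjusted p = 0.0287). Mouse 105 was high among controls and mouse 305 among treated mice, and the call was lost without mouse 102 or 305 (highest adjusted p over all alternatives, 0.171). Of 73 cytosolic ribosomal proteins, 4 were increased and 2 decreased around a median of 0.03. Rps23, of the small subunit, had the largest log2 fold change of the list, with 81.2, 65.5, 63.8, 49.9 and 85.6 CPM in controls, 183, 170.1, 255, 236 and 230.3 CPM in treated mice and a value of 1.63 ± 0.23 (adjusted p = 2.29e-06). The 2 decreases, Rps28 and Rps29, were 1 or 0 without 8 of the 10 mice taken singly. Mitochondrial ribosomal proteins gave 0 calls of 74 with edgeR and with DESeq2, with a median of 0.13.

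Energy metabolism beyond beta-oxidation gave scattered calls. Of 73 subunits of oxidative phosphorylation, 7 were increased and 1 decreased, with a median of 0.14. Cox6c, a subunit of complex IV, had 169.7, 108, 109.7, 95.3 and 122 CPM in controls and 294, 269, 243, 255 and 309.7 CPM in treated mice and rose by 1.18 ± 0.21 (adjusted p = 0.000328). Atp5g3, of ATP synthase, and Uqcrc2, of complex III, rose by 0.66 ± 0.12 (adjusted p = 0.000359) and 0.49 ± 0.12 (adjusted p = 0.0102). The number of increases was 4 without mouse 102 or 302. The decrease was Atp5o, of ATP synthase, at -0.66 ± 0.20 (adjusted p = 0.0887), and the list had 0 decreases when any mouse other than 303 or 104 was left out, and with no filter on low counts. In the citric acid cycle, Dlst, of the oxoglutarate dehydrogenase complex, was the one call of 23, at 0.45 ± 0.12 (adjusted p = 0.0249). Glucose metabolism gave 1 increase and 1 decrease of 24. Gpd1, which makes glycerol phosphate, rose by 0.58 ± 0.13 (adjusted p = 0.0075), and Pygl, the glycogen phosphorylase of the liver, was at -0.43 ± 0.12 (adjusted p = 0.0554). The call of Pygl was lost without 5 of the 10 mice taken singly (highest adjusted p over all alternatives, 0.694). Of 41 mitochondrial carriers, Slc25a23, which exchanges ATP with phosphate, was the one call, at -0.84 ± 0.20 (adjusted p = 0.0146).

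Amino acid catabolism leaned to decreases. In the list of 32 enzymes, 4 were decreased and 1 increased. In the urea cycle, 2 of 10 genes were decreased and 0 increased. Ass1, which joins citrulline and aspartate, had 4679, 5891, 5216, 7065 and 5547 CPM in controls and 3054, 4805, 2965, 3285 and 2757 CPM in treated mice, at -0.75 ± 0.14 (adjusted p = 0.000939), and mouse 302 overlapped control 101. Gls2, the glutaminase of the liver and the second of the 2, was at -0.66 ± 0.17 (adjusted p = 0.0332), Agxt, which removes glyoxylate, at -0.85 ± 0.23 (adjusted p = 0.0339) and Cdo1, which oxidizes cysteine, at -0.77 ± 0.23 (adjusted p = 0.0753). Aadat, of lysine and kynurenine breakdown, was the increase, at 0.74 ± 0.22 (adjusted p = 0.0683). Further probes of Gls2 were at -0.49 ± 0.33 and 0.04 ± 0.38, a second probe of Aadat was at 0.13 ± 0.28, and none was called. The number of decreases was 1 without mouse 303 and 2 without mouse 304. The call of Gls2 was lost without mouse 104, 303 or 304 (highest adjusted p over all alternatives, 0.327), that of Agxt was lost without mouse 105 or 303 (highest adjusted p over all alternatives, 0.478) and that of Aadat was lost without 6 of the 10 mice taken singly (highest adjusted p over all alternatives, 0.327). In the pathway from tryptophan to NAD, Kynu and Qprt, of its later steps, were lower at -0.71 ± 0.16 (adjusted p = 0.00787) and -0.80 ± 0.20 (adjusted p = 0.0179), and Nampt, of the salvage path, was higher at 1.45 ± 0.45 (adjusted p = 0.0969) with overlap of the groups. The call of Nampt was lost without 7 of the 10 mice taken singly (highest adjusted p over all alternatives, 0.324). A second probe of Qprt was at 0.60 ± 0.46 (adjusted p = 0.718). Branched-chain amino acid catabolism and one-carbon metabolism gave 0 calls of 21 and 18 with edgeR, 0 and 1 with DESeq2, with medians of 0.23 and -0.27.

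Enzymes of drug metabolism changed little as groups. Of 39 Cyp1, Cyp2 and Cyp3 enzymes, 1 was increased and 1 decreased, with a median of 0. Cyp3a11, which oxidizes many drugs and steroids, had 389, 330.5, 389, 357 and 275 CPM in controls and 886, 902, 761, 493 and 1008 CPM in treated mice, at 1.22 ± 0.37 (adjusted p = 0.0929), and Cyp3a13 was at -1.39 ± 0.40 (adjusted p = 0.0562). Each was lost without most of the mice taken singly, with highest adjusted p values over all alternatives of 0.774 and 0.327. A second probe of Cyp3a11 was at -0.31 ± 0.36 (adjusted p = 0.981), with both probes summed the log2 fold change was 0.39 and not called, and DESeq2 did not call the gene. Of 42 conjugating enzymes, 4 were increased and 1 decreased. Gstt2, a glutathione transferase, and Ugt2b5, a glucuronosyltransferase, rose by 0.99 ± 0.20 (adjusted p = 0.00189) and 0.82 ± 0.17 (adjusted p = 0.00334), and the sulfotransferase Sult1a1 was at -0.82 ± 0.25 (adjusted p = 0.0931). The increases were 2 without mouse 102 or 104. The call of Sult1a1 was lost without 8 of the 10 mice taken singly (highest adjusted p over all alternatives, 0.327). Among 27 carboxylesterases and aldehyde dehydrogenases, 3 were increased and 1 decreased. The decrease was Ces1c, a carboxylesterase that the liver secretes, at -0.49 ± 0.15 (adjusted p = 0.0929). The call of Ces1c was lost without 9 of the 10 mice taken singly (highest adjusted p over all alternatives, 0.923). Aldh3a2, which oxidizes fatty aldehydes, had 191, 241, 227, 189 and 185 CPM in controls and 823, 595, 737, 955 and 737 CPM in treated mice and rose by 1.90 ± 0.17 (adjusted p = 1.96e-11). Of 25 NRF2 targets and antioxidant enzymes, Ephx1, an epoxide hydrolase, Gsr, which renews glutathione, and Gpx4, which reduces lipid peroxides, rose by 1.11 ± 0.22 (adjusted p = 0.00185), 0.51 ± 0.13 (adjusted p = 0.0198) and 0.62 ± 0.17 (adjusted p = 0.0446). The call of Gpx4 was lost without mouse 102, 105 or 301 (highest adjusted p over all alternatives, 0.81).

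Of the major urinary proteins, pheromone carriers made in large amounts by the male liver, the called members moved in opposite directions. Mup3 had 9757, 7590.2, 14176, 11725 and 11415 CPM in controls and 5384, 4455, 3996, 4429 and 4323 CPM in treated mice, at -1.28 ± 0.31 (adjusted p = 0.0163). Mup15 had 1833, 1079.9, 862, 956 and 1470.1 CPM in controls and 3606, 3951, 4395, 3719 and 4083 CPM in treated mice, and rose by 1.67 ± 0.27 (adjusted p = 8.38e-05). The groups were apart for both on their most counted probes, and the other 11 members tested were not called. A second probe of Mup3 was at -0.27 ± 0.29 (adjusted p = 0.943). The family is made of near-identical copies, so the split of reads between its members is uncertain. Genes known for male-biased expression in the liver gave 0 calls of 10 and those of the growth hormone and IGF1 axis 0 of 18 with edgeR, where DESeq2 called 0 and 3. Genes known for female-biased expression gave 1 of 17, Hao2, a peroxisomal hydroxy acid oxidase, with reads in treated mice 304 and 305 alone.

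The lists of cell division and of the p53 response held no called gene. DNA replication and mitosis gave 0 calls of 31 and p53 targets and apoptosis regulators 0 of 31 with edgeR, and DESeq2 called 4 and 0. Most of these genes had few reads. Pcna, the sliding clamp of replication and the most counted of its list, was at 13.2 to 43.4 CPM in controls and 6.91 to 29.1 CPM in treated mice, and Xiap, an inhibitor of caspases, at 114 to 158 and 84.3 to 138 CPM. Kif20a, a mitotic kinesin outside the list, was called, with 0 reads in each control and at most 7.26 CPM in treated mice. Its call was lost with probes summed by gene and with counts in units of molecules. Core clock genes gave 0 calls of 17 and pericentral markers 0 of 15 with edgeR, and DESeq2 called 0 and 1. Periportal markers gave 1 increase and 2 decreases of 13, which are Hsd17b13, Ass1 and Gls2.

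The largest fitted fold changes belonged to genes at the edge of detection. The 12 increased genes ranked highest by fold were Krt23, Rprd1a, Abcc4, Hao2, Mogat1, Fam92a, Cox6b2, Sult2a7, Mphosph10, Kif20a, Cxcl10 and Fuk, and all 12 had 0 reads in all 5 controls. Their values in treated mice reached at most 15.5 CPM, or 5.93 molecules, with a median of 1.43 molecules, and 11 of the 60 values were 0. With counts in units of molecules, 3 of the 12 passed the filter and 1 was called. The call of Rprd1a was lost without each of the 10 mice taken singly, that of Fuk without 8, that of Fam92a without 6 and that of Abcc4 without 4 of them, with highest adjusted p values over all alternatives of 0.225, 0.219, 0.183 and 0.159. In all, 27 increased genes had 0 reads in every control. Of the 8 decreased genes with the largest fold, Dnaic1, Lrtm1, Gm379 and Cd48 had 0 reads in every treated mouse and at most 9.21 CPM in a control. The other 4 were Apoa4 above, Camk1, a calcium-dependent kinase, at -1.84 ± 0.56 (adjusted p = 0.0887), Pnrc1, a nuclear receptor coactivator, with 41.5, 52.5, 27.8, 32.1 and 30 CPM in controls and 6.43, 17.2, 13.5, 11 and 5.68 CPM in treated mice at -1.77 ± 0.37 (adjusted p = 0.00345), and Rdh1, a retinol dehydrogenase, at -1.58 ± 0.35 (adjusted p = 0.00628). The call of Dnaic1 was lost without 9 of the 10 mice taken singly and those of Gm379, Cd48 and Camk1 without 8, with highest adjusted p values over all alternatives of 0.207, 0.223, 0.871 and 0.427. With probes summed by gene, the log2 fold changes of Cd48 and Camk1 were -1.57 and -0.65 and neither was called.

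The dose was set beside the other male doses, which share the control mice. Between 0.5 and 5 mg/kg, 145 genes rose (1.17% of those tested) and 229 fell (1.84%) in a direct test of the step, and 94 rose without mouse 402 at 5 mg/kg. Of the genes increased at 0.5 mg/kg, 34 rose further and 5 fell, and of those decreased, 25 fell further and 5 rose. The step uses the mice by which these genes were called. Ehhadh had a mean of 205 ± 50.8 CPM (SD, n = 5) in controls, 326 ± 61.9 CPM at 0.1 mg/kg, 1926 ± 265 CPM at 0.5 mg/kg and 10597 ± 1920.3 CPM at 5 mg/kg, and the step to 5 mg/kg was 2.46 ± 0.17 (adjusted p = 4.94e-15). Acot1, Plin2, Aldh3a2 and Acadl also rose further, by 2.19 ± 0.26 (adjusted p = 3.28e-08), 1.63 ± 0.19 (adjusted p = 1.91e-08), 1.45 ± 0.17 (adjusted p = 3.14e-08) and 0.81 ± 0.15 (adjusted p = 0.000234). For Retsat the step was 0.17 ± 0.16 (adjusted p = 0.986), for Cyp4a14 0.99 ± 0.58 (adjusted p = 0.486) and for Pex11a 0.44 ± 0.34 (adjusted p = 0.797), and none of these passed the threshold. At 0.1 mg/kg, these 8 genes had log2 fold changes of 0.22 to 1.41 and none was called.

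Some genes had means further from control at 0.5 than at 5 mg/kg. Mup15 had means of 1240.0 ± 404, 2474 ± 1308, 3951 ± 311 and 1298 ± 184 CPM (SD, n = 5) from control to 5 mg/kg, and the step down to 5 mg/kg was -1.61 ± 0.27 (adjusted p = 8.75e-05). Apoa2 and Creld2 also fell in the step, by 0.41 (adjusted p = 0.0912) and 1.34 (adjusted p = 0.077) on the log2 scale. Cyp3a13, decreased at 0.5 mg/kg, rose in the step by 1.45 ± 0.40 (adjusted p = 0.035). For Bag3 and Hspb8 the steps were -0.70 ± 0.27 (adjusted p = 0.246) and -0.41 ± 0.18 (adjusted p = 0.297) and did not pass. Vtn was at 1139 ± 106, 977 ± 182, 563 ± 59.5 and 469 ± 45.4 CPM over the same doses, with a step of -0.26 ± 0.13 (adjusted p = 0.325), whereas Fgg fell further, by 0.53 (adjusted p = 0.0164), and Mup3 by 2.49 (adjusted p = 4.25e-07).

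**Figure D4:**
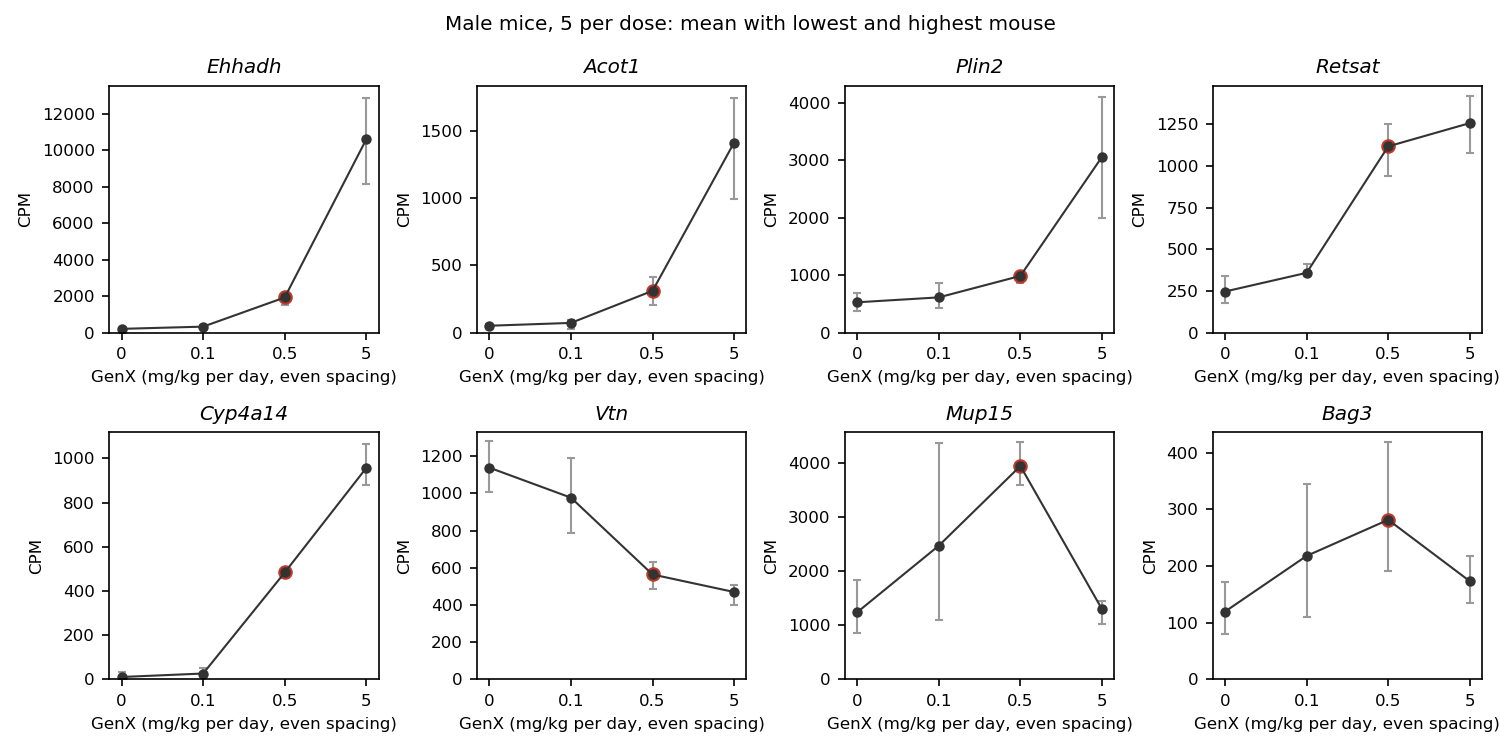
Points are the mean CPM of the 5 male mice at each dose and bars reach from the lowest to the highest mouse, with doses in mg/kg per day at even spacing on the x axis and 0.5 mg/kg ringed in red. Ehhadh, Acot1 and Plin2 climb most between 0.5 and 5 mg/kg, Retsat has most of its rise by 0.5 mg/kg, and Mup15 and Bag3 have their highest mean at 0.5 mg/kg.

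Females given the same dose showed fewer changes, with 22 genes increased (0.177%) and 3 decreased (0.0242%) in 4 treated and 5 control females. Of the 233 genes increased in males, 16 were increased in females and 147 had a log2 fold change above 0 there, where 47.3% of all genes tested did. Their median was 0.131, where all genes had 0. Of the 91 genes decreased in males, 0 were decreased in females and 56 lay below 0, where 49.7% of all genes tested did, with a median of -0.126. Tested directly, the response was more positive in males for 29 genes (0.234%) and more negative for 11 (0.0886%). Of the genes called in males, 24 increased genes were among the 29 and 5 decreased genes among the 11. The test of the sexes includes the 10 males by which these genes were called, so this overlap is no independent result. Without female 351, 352 or 153, the first number was 14, 16 and 19. Without female 351 or male 305 the second was 6, and 7 without female 352 or male 103 or 105.

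Genes of fatty acid oxidation with a called sex difference had positive values in both sexes, but not all were called in females. Ehhadh rose in females from 172 to 282 CPM in controls to 615 to 1062 CPM, by 1.72 ± 0.17 (adjusted p = 1.14e-09), and the male response was larger by 1.51 ± 0.24 (adjusted p = 0.000367). Cyp4a10 rose in females by 1.92 ± 0.36 (adjusted p = 0.00333), from a higher control level of 76.8 to 264 CPM, and the male response was larger by 3.01 ± 0.51 (adjusted p = 0.00158). Eci2, Eci1, Acadl and Aldh3a2 were larger in males by 1.07, 1.15, 0.98 and 1.28 on the log2 scale, and none of them was called in females. The female values were 0.10 ± 0.18 for Eci2, 0.32 ± 0.19 for Eci1 and 0.54 ± 0.15 for Acadl. For Retsat, the responses were 2.18 ± 0.17 (adjusted p = 2.39e-13) in males and 1.93 ± 0.18 (adjusted p = 1.01e-10) in females, with a difference of 0.25 ± 0.24 (adjusted p = 0.975) that did not pass. Vtn was 0.03 ± 0.14 (adjusted p = 1) in females, and the male response was lower by 1.04 (adjusted p = 0.00463). Atp10d, a phospholipid flippase, had 6.68, 9.37, 3.36, 4.68 and 6.32 CPM in control males and 26.7, 58.9, 33.1, 42.5 and 25.3 CPM in treated males, while female controls had 16.2 to 24.5 and treated females 16.6 to 31.3 CPM, and the difference of the responses was 2.62 ± 0.49 (adjusted p = 0.00463).

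**Figure D5:**
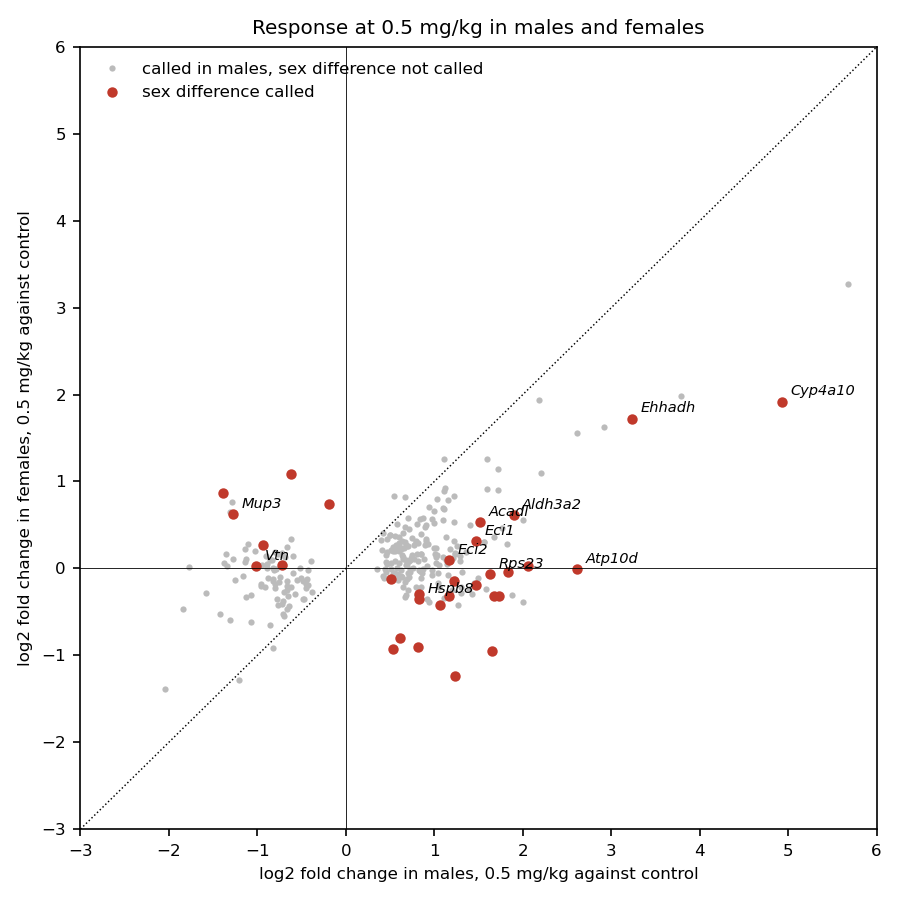
Each point is a gene placed by its log2 fold change at 0.5 mg/kg against control in males (x axis) and females (y axis), for 297 genes called in males or in the test of the sexes with a mean of at least 5 CPM in each of the 4 groups. Red points are the 31 of these with a called sex difference, and the dotted line marks equal responses. Ehhadh and Cyp4a10 lie below the line with positive values in both sexes, and Atp10d and Rps23 lie near 0 in females.

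A few genes were called in females and not in males, with a called difference between the sexes. Cyp4a12a, an omega-hydroxylase of male liver, had at most 0.0850 CPM in female controls and 6.21 to 83.5 CPM in treated females (adjusted p = 2.08e-13). In males it was at 197, 201, 268, 217 and 169 CPM in controls and 267, 357, 253, 201 and 325 CPM in treated mice, with overlap and a log2 fold change of 0.42 ± 0.35 (adjusted p = 0.788). The difference of the responses had an adjusted p of 3.31e-10, and its fold is not given because female controls held almost no reads. Cyp4a12b and Nat8f5, an acetyltransferase-like gene, had 0 reads in female controls, up to 23.7 and 26.6 CPM in treated females, and differed between the sexes at adjusted p of 0.00284 and 0.0108. Sult1e1, the estrogen sulfotransferase, was at 0 to 515 CPM in female controls and 0 in treated females, and had reads in 1 of the 10 males, mouse 301.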

How the data were processed

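RNA in liver sections was measured by TempO-Seq in 40 mice, of which 39 entered the model. The authors deposited raw counts of reads per probe for all mice in 1 table, with no normalization. Per the submitters' processing notes, bcl2fastq 2.17.1.14, Bowtie and mm10 were used, and the version of Bowtie is not given in the sources used here. The library of mouse 355 fell more than 2 SD under the mean depth, the criterion of the study, and was left out. A few genes are not reported here.

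Counts were fitted with edgeR 4.0.16 (R 4.3.3) over all 8 groups of sex and dose, with TMM scaling and a quasi-likelihood F-test of each contrast, after edgeR's filter on low counts. Benjamini-Hochberg values ran over 17877 probes of 30146, and each gene was read on its most counted probe, which gave 12412 genes. CPM are counts per 1000000 reads after TMM. The sex difference is the interaction of sex and dose. Scripts were tested on simulated data. Depth was 287241 to 526723 molecules in the 10 mice, and this spread may be technical in part. Standard errors cover the spread between mice of a group and not the difference in depth between the groups. Permutation tests over 5 against 5 mice enumerate all splits and are two-sided.

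The members and lists were chosen with earlier results of these data known. Genes were named by rule: the 12 increased and 8 decreased with the largest fold, up to 4 called genes of each of 56 lists by smallest p or else the most counted member, the 4 smallest p of each direction in the sex difference, and PPAR pathway genes of the study. Other list members are named after their values were seen. Gene positions are from GENCODE for GRCm38, and promoter windows from RefSeq for GRCm38.p6. Alternatives were DESeq2 1.42.0 (with a local dispersion trend where its default could not be fitted), its size factors in edgeR, no filter, all 40 libraries, the groups compared alone, probes summed by gene, counts in units of molecules, leaving out each mouse and, chosen after seeing the data, molecules thinned at random to 287181 per library.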

Additional observations from a re-analysis of the deposited data

Results flagged for a closer look

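Among the genes named, 15 of 255 groups of 5 mice held a mouse whose gap to the next passed Dixon's critical value, where chance flags about 1 in 20. Mice 102, 105, 301 and 302 accounted for 3 each, mouse 303 for 2 and mouse 304 for 1. The control mice that stood apart were high for Cyp4a31 in mouse 102 (87.7 CPM, the other 4 at 28.6 to 45.4), Cyp4a14 in mouse 102 (30.7 CPM, the other 4 at 0 to 6.98), Psmd6 in mouse 102 (110.0 CPM, the other 4 at 64.5 to 73.5), F11 in mouse 105 (71.1 CPM, the other 4 at 33.4 to 42) and Creld2 in mouse 105 (499.9 CPM, the other 4 at 116 to 217). A treated mouse was high for Acot3 in mouse 301 (78.0 CPM, the other 4 at 12.4 to 25.3), Apoa2 in mouse 301 (4059 CPM, the other 4 at 2936 to 3186) and Psmc2 in mouse 303 (159.7 CPM, the other 4 at 115 to 121). For the decreased genes, a treated mouse lay nearest to the controls for Serpind1 in mouse 304 (145 CPM, the other 4 at 112 to 119) and Ass1 in mouse 302 (4805 CPM, the other 4 at 2757 to 3285). A control lay below the others for Acadm in mouse 105 (497 CPM, the other 4 at 607 to 650.4), and the remaining cases were C1qb in mouse 303 (20.8 CPM, the other 4 at 50.7 to 60.2) and the sparse genes Fam92a in mouse 302 (13.7 CPM, the other 4 at 0 to 3.23), Lipe in mouse 302 (2.39 CPM, the other 4 at 0) and Sult1e1 in mouse 301 (2.00 CPM, the other 4 at 0). Of these genes, F11, Creld2 and Fam92a lost their call when some single mouse was left out, with highest adjusted p values over all alternatives of 0.15, 0.171 and 0.183, and the others that were called in males did not.

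The response to 0.5 mg/kg differed between the sexes, by the interaction term of the edgeR model, for 21 of the genes named. Differences are male minus female log2 fold changes. The response was more positive in males for the fatty acid genes Ehhadh (1.51, adjusted p = 0.000367), Cyp4a10 (3.01, adjusted p = 0.00158), Acadl (0.98, adjusted p = 0.0258), Eci1 (1.15, adjusted p = 0.048), Eci2 (1.07, adjusted p = 0.0458) and Aldh3a2 (1.28, adjusted p = 0.00621). The same held for Atp10d (2.62, adjusted p = 0.00463), Rps23 (1.70, adjusted p = 0.00621), Hspb8 (1.18, adjusted p = 0.0299), Hsd17b13 (2.04, adjusted p = 0.0419) and Mup15 (1.98, adjusted p = 0.0105). It was more negative in males for Vtn (-1.04, adjusted p = 0.00463), Mup3 (-1.90, adjusted p = 0.0519) and Cyp3a13 (-2.26, adjusted p = 0.0928). The sparse genes with 0 reads in control males, Cox6b2 (adjusted p = 0.098), Sult2a7 (adjusted p = 0.055) and Cxcl10 (adjusted p = 0.0396), and Sult1e1 (adjusted p = 0.00369), whose reads lie in control females, were also called, and no fold is given for them. For Cyp4a12a (adjusted p = 3.31e-10), Cyp4a12b (adjusted p = 0.00284) and Nat8f5 (adjusted p = 0.0108), treated females had reads and control females had almost none. The sexes were dosed and measured as separate groups, and 4 treated females entered the model.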

How the results depend on the processing

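Counts of genes are given as higher and lower. Against 233 and 91 for males at 0.5 mg/kg, DESeq2 gave 380 and 249, the model with all 40 libraries 54 and 11, the 10 libraries alone 227 and 142, molecules 307 and 273 and thinned molecules, an alternative chosen after seeing the data, 236 and 224. Leaving out each mouse gave 177 to 227 higher and 53 to 76 lower genes, with 54, 53 and 58 lower without mice 303, 305 and 104. Against 29 and 11 for the sex difference, DESeq2 gave 165 and 115, no filter 92 and 32, all 40 libraries 5 and 3, summed probes 46 and 15, molecules 46 and 42 and thinned molecules 21 and 23. Leaving out each of 19 mice gave 14 to 40 and 6 to 15, with 19 higher without female 153, 6 lower without male 305 and 7 lower without male 103 or 105. Against 145 and 229 for the dose step, DESeq2 gave 266 and 346, all 40 libraries 40 and 73, the groups alone 333 and 291, molecules 378 and 430 and thinned molecules 285 and 295, and leaving out each mouse 94 to 131 and 159 to 235, with 94 higher without mouse 402 at 5 mg/kg. DESeq2's size factors in edgeR stayed within 1.5 times of all 6 counts. The 110 called genes named gave 1937 values over these settings, of which 1631 stayed past the threshold, 306 did not and 0 changed direction. The cause of these shifts was not tested. No paired analysis was possible because the animal numbers are not shared between groups. Molecules limit depth, and of the 12412 genes 4290 passed the filter in molecules and 3693 after thinning, so for sparse genes a difference was often not detectable.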

Other observations

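Of the 324 called genes, 121 lay in a list. Among the others, chosen here after their values were seen for a small p, Hsd17b11, a lipid droplet dehydrogenase, had 161, 239, 226, 152 and 122 CPM in controls and 546, 588, 586, 598 and 642 CPM in treated males and rose by 1.72 ± 0.17 (adjusted p = 2.04e-10). It also rose in females, by 0.90 ± 0.17 (adjusted p = 0.00379), and further between 0.5 and 5 mg/kg in males, by 1.25 ± 0.16 (adjusted p = 5.23e-07). Hprt, an enzyme of purine salvage that is often used as a reference gene, rose by 0.90 ± 0.15 (adjusted p = 7.84e-05), with controls at 109 to 187 CPM and treated males at 242 to 328 CPM. Vwa8, a mitochondrial ATPase, rose by 0.99 ± 0.15 (adjusted p = 2.91e-05), Fth1, the heavy chain of ferritin, by 0.52 ± 0.10 (adjusted p = 0.00149), and Vcp, an ATPase that extracts proteins for degradation, by 0.93 ± 0.19 (adjusted p = 0.00211). Nub1, which lowers NEDD8, had 10.7, 7.41, 11.7, 6.19 and 11.7 CPM in controls and 30.2, 49.3, 31.3, 31.4 and 56.4 CPM in treated males, at 2.06 ± 0.29 (adjusted p = 3.31e-06). For these 6 genes every treated male lay above every control.

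Among decreased genes outside the lists, Pzp, a protease-binding plasma protein, had 2364, 3236, 3015, 3261 and 2949 CPM in controls and 2088, 1660.4, 1915, 1552 and 1802 CPM in treated males, at -0.72 ± 0.11 (adjusted p = 5.37e-05). Asgr2, a subunit of the asialoglycoprotein receptor that clears plasma glycoproteins, was at -0.81 ± 0.16 (adjusted p = 0.00186), Azgp1, a secreted glycoprotein, at -0.55 ± 0.12 (adjusted p = 0.00436), and Cldn1, a tight junction protein, at -0.95 ± 0.21 (adjusted p = 0.00467). Ctsl, a lysosomal protease, was at -0.70 ± 0.15 (adjusted p = 0.00525) and rose in the step to 5 mg/kg by 0.60 ± 0.15 (adjusted p = 0.0216), and Dnmt3a, a DNA methyltransferase, at -1.14 ± 0.26 (adjusted p = 0.00864) with a step of 0.85 ± 0.26 (adjusted p = 0.0869). The groups of males did not overlap for these 6 genes on their most counted probes. Further probes of Dnmt3a were at 0.06 ± 0.25 and -0.30 ± 1.94 and were not called.

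Some genes with different levels in control males and females came near the female level in treated males. Means are given with SD over 5 mice, or 4 treated females. Vtn was 1139 ± 106 CPM in control males, 977 ± 182 at 0.1 mg/kg and 563 ± 59.5 at 0.5 mg/kg, and 676 ± 62.0 in control and 688 ± 77.8 in treated females. Pzp was 2965 ± 362, 2335 ± 313 and 1804 ± 210.4 CPM in males and 1754 ± 259 and 1807 ± 37.2 CPM in females. Rps23 was 69.2 ± 14.4, 114 ± 50.4 and 215 ± 36.5 CPM in males and 173 ± 31.8 and 165 ± 50.5 CPM in females. Hspb8 was 396 ± 105, 539 ± 164 and 703 ± 75.6 CPM in males and 755 ± 157 and 592 ± 102 CPM in females. These genes were chosen after their values were seen, each male dose uses the same 5 controls, and no difference between treated males and females was tested. The lists of genes known for male-biased and female-biased liver expression did not move as groups at 0.5 mg/kg in males. They gave 0 calls of 10 and 1 of 17, with median log2 fold changes of -0.02 and 0.

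The serum amyloid genes Saa1 and Saa2, acute-phase proteins that are close in sequence, varied most in treated males. Saa2 was at 22, 35, 45.1, 43.8 and 34.8 CPM in controls and 938, 276, 6.29, 15.3 and 157 CPM in treated males 301 to 305, at 2.95 ± 1.05 (adjusted p = 0.187). Saa1 was at 41.4, 86.2, 111, 96.9 and 176 and 1538, 574, 27.8, 55.3 and 325 CPM, at 2.30 ± 0.84 (adjusted p = 0.205). Mice 301, 302 and 305 lay above all controls and mice 303 and 304 below most or all of them for both genes, and neither gene passed the threshold.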
